A study of Mus musculus with 7 samples.

Results

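The nuclear-encoded subunits of respiratory complexes I to V were followed in neonatal mouse ventricle, complex by complex and, where a subunit has more than 1 gene, isoform by isoform. Genes were taken by symbol, as those whose names begin with Nduf followed by a, b, c, s or v and a digit, with Uqcr, with Cox followed by a digit from 4 to 8 or with Atp5, together with Sdha to Sdhd. This gave 84 of the 17404 genes in the expression table, namely 38 of complex I, 4 of complex II, 8 of complex III, 17 of complex IV and 17 of complex V. Ndufa4 and Ndufa4l2 were counted with complex IV, to which the NDUFA4 protein belongs. Cox6b2, the testis isoform of cytochrome c oxidase subunit VIb, was left out by the rule and is set beside its partner Cox6b1 only once.

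The respiratory chain lies in the inner mitochondrial membrane. Complex I takes electrons from NADH and complex II from succinate, ubiquinone carries them to complex III, cytochrome c carries them to complex IV, and complex IV passes them to oxygen. Complexes I, III and IV pump protons, and complex V, the ATP synthase, uses the returning protons to make ATP. Heart muscle draws nearly all of its ATP from this chain, and in mice its mitochondria mature and its cytochrome c oxidase acquires heart and muscle isoforms around birth. All subunits of complex II and most subunits of the others are encoded in the nucleus. The remainder are encoded in mitochondrial DNA. None of these 13 was found by symbol in the expression table, and they were not analysed here.

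Ventricles of untreated pups were taken on postnatal day 4 (P4), and RNA-Seq was done on 3 pools of the inbred strain BALB/cByJ and 4 pools of its sister strain BALB/cJ. BALB/cByJ carries a large natural deletion in Cyth1 together with ectopic transcription of Dnah17, and BALB/cJ carries a retroviral insertion in Zhx2. Neither strain carries an engineered allele. Each library came from a pool of 3 to 4 ventricles by the study's methods, so p-values measure the spread between pools, and neither the labels nor the methods give the sexes of the pups.

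Values are called expression values. They are not counts, and their normalization is not stated; from their form (2 decimals, library sums of 543023 to 628977) they are taken to be normalized for depth and transcript length, and levels are compared between genes on that footing. The number of reads behind them is unknown, so no counting interval can be given. The libraries followed their strain labels at the altered loci, with Cyth1 at 0.1 to 0.19 in BALB/cByJ and 25.8 to 26.98 in BALB/cJ, and Zhx2 at 5.47 to 7.98 in BALB/cByJ and 0.25 to 0.51 in BALB/cJ. Summed Y-linked transcripts differed between the strains, at 80.2 to 128 in BALB/cByJ and 0.04 to 37.6 in BALB/cJ. The lowest sum, 0.04, was that of BALB/cJ 1, in which these male transcripts were at or near 0. All 10 cardiomyocyte markers looked at were detected, with a summed value of 48508 to 58433 in BALB/cByJ and 43143 to 48180 in BALB/cJ, and limma called 0 of them (1, Pln, was higher at an unadjusted p under 0.05). BALB/cByJ 2 and BALB/cJ 1 stood apart from the other libraries in that genes with a transcript under 1000 bases had low values in them. Over 454 such genes that are not respiratory subunits, the median deviation from each gene's mean on the log2 scale was 0.11, -0.15 and 0.17 in the 3 BALB/cByJ libraries, against -0.23, 0.13, 0.0037 and 0.0058 in the 4 BALB/cJ libraries. Many respiratory subunits have transcripts of this size (40 of the 81 with a known length), so results are also given without BALB/cByJ 2 and BALB/cJ 1 where that matters.

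Respiratory subunit genes were among the most abundant transcripts of the P4 ventricle. Of the 84 genes, 79 had a mean expression value of at least 100 and 29 of at least 1000, and the median over the tested members was 660.1 against 10.1 over all tested genes. Together they made up 13.1%, 11.9% and 13.1% of the summed expression value of BALB/cByJ libraries 1 to 3, and 10.96%, 12.4%, 11.6% and 11.8% of that of BALB/cJ libraries 1 to 4. These shares overlapped between the strains, with means of 12.7% ± 0.657 in BALB/cByJ (SD, n = 3) and 11.7% ± 0.594 in BALB/cJ (SD, n = 4). The shares of complexes II and V did not overlap, with complex II at 0.333% to 0.354% in BALB/cByJ and 0.314% to 0.331% in BALB/cJ and complex V at 3.86% to 4.04% in BALB/cByJ and 3.50% to 3.77% in BALB/cJ. Before division by the library totals, the summed values of both complexes overlapped. Complex II summed to 2009 in BALB/cByJ 2 and 2027 in BALB/cJ 2, and complex V to 22035 and 23738. In BALB/cByJ complex IV (3.89%) and complex V (3.94%) each took a larger share of the summed value than complex I (3.10%), although complex I has more genes. All these percentages are shares of the summed values listed, among which the 13 mitochondrial DNA-encoded subunits were not found by symbol.

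Strain differences were tested with limma on log2(value + 1) over 12715 genes, those whose mean reached 0.5, and p-values were adjusted over all of them. Of the 82 members tested, 1 was called higher in BALB/cByJ at an adjusted p under 0.05, against 0.771% of all genes tested, and 0 were called lower, against 0.881% of all genes (1.65% in either direction). The called gene was Uqcrc2, which encodes core protein 2 of complex III. At an unadjusted p under 0.05 there were 8 members higher and 0 lower in BALB/cByJ, beside 5.06% and 13.3% of all genes tested. Small positive differences prevailed, with a log2 fold change above 0 in 75 of 82 members (91.5%) against 34.8% of all genes. The median log2 fold change of the members was 0.17, a ratio of 1.12, and that of all genes was -0.073. Other abundant genes, with a mean of at least 200, also had positive medians, at 0.072 for the 265 with a transcript of 1000 bases or more and 0.080 for the 78 with a shorter one. Cardiomyocyte markers had a median log2 fold change of 0.17, as the members had, with 8 of 10 above 0. Their sums did not overlap between the strains, but narrowly so, with 48508 the lowest in BALB/cByJ and 48180 the highest in BALB/cJ. Myl2, the largest part of these sums, overlapped, at 19318 in BALB/cByJ 1 and 20585 in BALB/cJ 2. Of the single markers only Myl3 and Pln did not overlap, both higher in BALB/cByJ, against 4.33% of all genes. Myh6 and Myh7 were below 0. The part of these markers in the difference was not tested. The sign of small differences depended on scaling, with 62 of 82 members above 0 after quantile normalization and 79 after TMM scaling. Of all 12715 genes, 5980 lay above 0 after quantile normalization and 6191 after TMM scaling. Among the members below 0 after quantile normalization were Sdhc and Sdhd of complex II, Uqcrc1, Uqcr11 and Uqcrh of complex III and Atp5g3 of complex V. Since standard errors of single members ran from 0.11 to 0.19 on the log2 scale, most of these differences were smaller than 2 standard errors. In bulk tissue, fewer cells of a type and less RNA per cell give the same values and cannot be told apart.

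**Figure D1:**
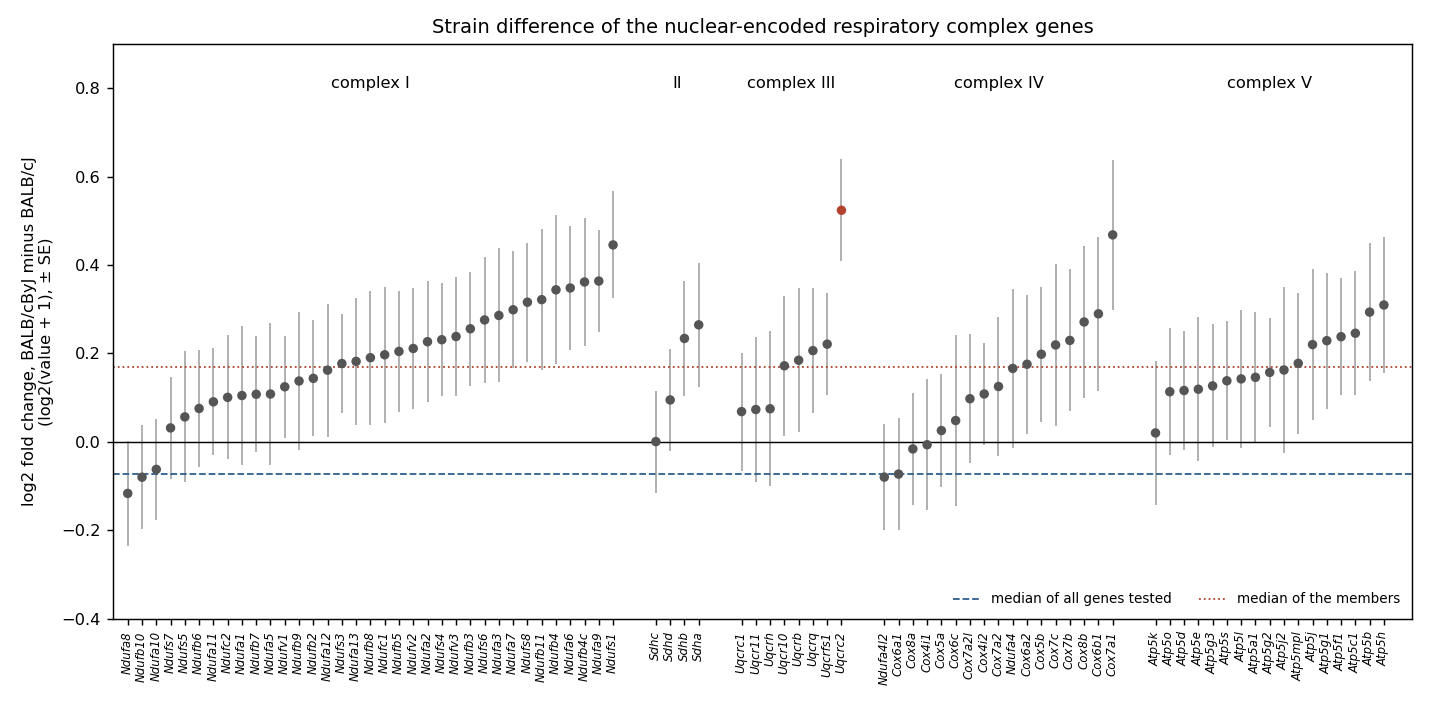
Log2 fold change (BALB/cByJ minus BALB/cJ, y axis) with its standard error for the tested members, ordered within complexes I to V. The dotted line marks the median of the members (0.17) and the dashed line the median of all genes tested (-0.073). Uqcrc2, in red, was the called gene, 7 members lie below 0 and the lowest is Ndufa8 at -0.12.

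The common shift was not borne evenly by the libraries. The median deviation of the 82 members from their own means on the log2 scale was 0.18, -0.076 and 0.21 in the 3 BALB/cByJ libraries, against -0.29, 0.13, -0.081 and -0.067 in the 4 BALB/cJ libraries. BALB/cByJ 2 therefore lay below BALB/cJ 2, and BALB/cJ 1 lay far below all others. BALB/cJ 1 was the lowest library for 60 of the 82 members, and BALB/cJ 4 for 15, against 21.5% and 8.06% of all genes. The highest library was BALB/cByJ 3 for 29, BALB/cByJ 1 for 25 and BALB/cJ 2 for 22, against 12.2%, 12.0% and 15.4% of all genes. Other genes with short transcripts followed nearly the same order of libraries, as given above, whereas genes with transcripts of 5000 bases or more had deviations of -0.083, 0.0027 and -0.11 in BALB/cByJ and 0.04, -0.048, 0.06 and 0.14 in BALB/cJ. Members with a transcript of 1000 bases or more showed the pattern as well, with medians of 0.2, -0.031 and 0.21 in BALB/cByJ and -0.29, 0.11, -0.093 and -0.065 in BALB/cJ. The part of transcript length in the shift was not tested beyond a covariate. The median log2 fold change was 0.19 without both BALB/cByJ 2 and BALB/cJ 1, 0.10 without BALB/cJ 1 alone, 0.27 without BALB/cByJ 2 alone, and 0.10 with the level of the other short transcripts as a covariate. When the Y-linked sum entered the fit as a covariate, the median was -0.00084 and 41 of 82 members lay above 0. In that fit the median of all genes was -0.12, and 3708 of 12715 lay above 0. The Y-linked sums of the strains did not overlap, so the parts of strain and of Y-linked level in the shift cannot be told apart.

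**Figure D2:**
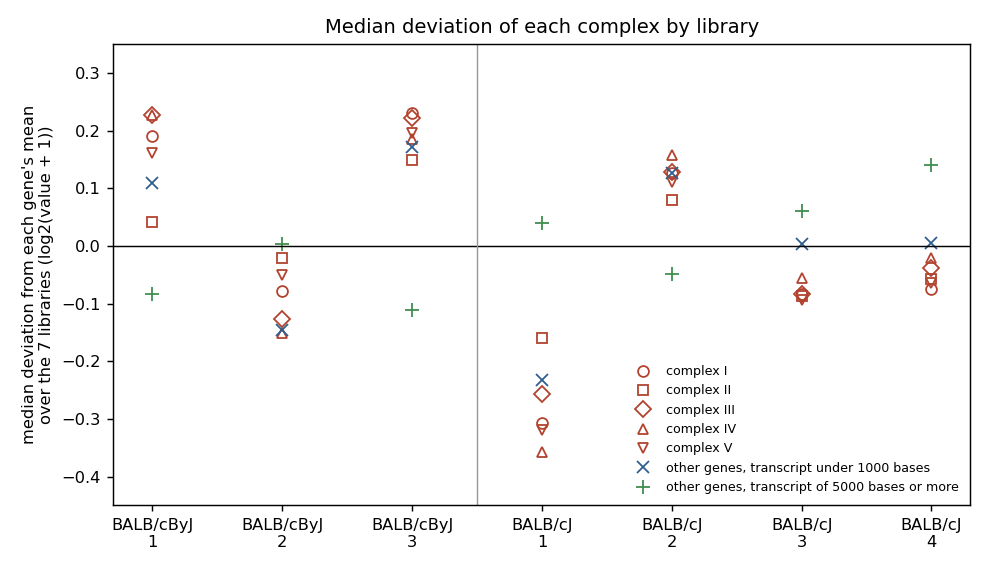
Median deviation of each complex from the genes' own means over the 7 libraries (y axis, log2(value + 1)) in BALB/cByJ 1 to 3 and BALB/cJ 1 to 4, with other genes of short (under 1000 bases, crosses) and long (5000 bases or more, plus signs) transcripts. All 5 complexes are lowest in BALB/cJ 1, and all lie below 0 in BALB/cByJ 2 and above 0 in BALB/cJ 2.

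Complex I has a matrix arm, which holds the flavin and the iron-sulfur clusters that carry electrons, and a membrane arm, which pumps protons. Of its 36 tested genes 33 had a positive log2 fold change, limma called 0 in either direction, and 6 reached an unadjusted p under 0.05, all higher in BALB/cByJ. All 16 matrix-arm genes were positive (median log2 fold change 0.23) and so were 16 of the 19 membrane-arm genes (median 0.14). The 3 exceptions were Ndufa8, Ndufb10 and Ndufa10. The arms also differed in transcript length, with medians of 1442.5 bases for the matrix arm and 971 for the membrane arm. Over the members of all complexes the median log2 fold change was 0.20 for transcripts of 1000 bases or more and 0.12 for shorter ones. The part of length in the difference between the arms was not tested.

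Ndufs1, on chromosome 1 (chr1:63143592-63176822, GRCm38.p6), encodes the largest core subunit of the matrix arm, which holds several iron-sulfur clusters. Its expression value was 281, 329.6 and 349 in the 3 BALB/cByJ libraries, against 271, 224, 230.05 and 213 in the 4 BALB/cJ libraries. Every BALB/cByJ library thus lay above every BALB/cJ library, a pattern found in 5 members (Ndufs1, Ndufa9, Uqcrc2, Uqcrfs1 and Atp5b) against 4.33% of all genes, while 0 members had the reverse, against 12.6% of all genes. The log2 fold change was 0.45 (SE 0.12), short of the threshold (adjusted p = 0.0817 from limma). It passed without BALB/cJ 1 (adjusted p = 0.0325 from limma) and with the short-transcript covariate (0.0249), under which 0.959% of all genes were called higher.

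Ndufa9, a subunit that lies where the arms of complex I meet, had values of 318, 328 and 394 in BALB/cByJ and 280.4, 280.7, 268 and 245 in BALB/cJ. The strains did not overlap, and the log2 fold change of 0.36 (SE 0.12) did not pass (adjusted p = 0.121 from limma). Ndufa6, an accessory subunit of the LYR family, had 653, 478 and 639 in BALB/cByJ and 392, 504, 479 and 468 in BALB/cJ, with BALB/cByJ 2 inside the BALB/cJ range (log2 fold change 0.35, adjusted p = 0.206 from limma). Ndufb4c, a near-identical copy of Ndufb4 with which it may share reads, had 239, 166 and 231 in BALB/cByJ and 135, 158, 185 and 177 in BALB/cJ, again with an overlap (log2 fold change 0.36, adjusted p = 0.203 from limma). The other copies were nearly silent. Ndufb4b was listed at 2.63 in BALB/cByJ 3 and at 0 elsewhere, and Ndufa11b was at most 0.14, so neither was tested.

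Ndufv1, which binds the flavin that accepts electrons from NADH, had 372, 413 and 366 in BALB/cByJ and 390.3, 329, 364 and 326 in BALB/cJ (log2 fold change 0.12, adjusted p = 0.585 from limma). The strains overlapped, and the difference was smaller than that of Ndufs1. The ratio of Ndufs1 to Ndufv1 within a library, chosen after the values were seen, was 0.754, 0.798 and 0.952 in BALB/cByJ and 0.694, 0.679, 0.632 and 0.654 in BALB/cJ, without overlap.

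Among accessory subunits of complex I, the levels spread over about an order of magnitude. By the mean over the 7 libraries Ndufb9 and Ndufb8, of the membrane arm, were the highest, at 1224 ± 137 and 1194 ± 129 in BALB/cByJ (SD, n = 3) and 1119.6 ± 187 and 1052 ± 165 in BALB/cJ (SD, n = 4). Ndufa12, of the matrix arm, was next by that mean, at 907 ± 114 in BALB/cByJ and 814 ± 130.2 in BALB/cJ, and Ndufa11, a membrane-arm subunit, was the lowest of those tested, at 116 ± 14.8 in BALB/cByJ and 109 ± 13.6 in BALB/cJ. Strains overlapped in each of these. Ndufa8, a membrane-arm subunit, had the most negative difference of all members, with 358, 358 and 367 in BALB/cByJ and 351, 457, 376 and 389 in BALB/cJ (log2 fold change -0.12, 95% interval -0.37 to 0.13, adjusted p = 0.624 from limma). Ndufb10, another accessory subunit of the membrane arm, had 617, 608 and 589 in BALB/cByJ and 611, 713, 624 and 614 in BALB/cJ (log2 fold change -0.08, adjusted p = 0.747 from limma). In both genes BALB/cJ 2 was the highest library and the other libraries overlapped.

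Complex II, succinate dehydrogenase, links the citric acid cycle to the chain and is made of 4 subunits. All 4 genes had a positive log2 fold change (median 0.16), while limma called 0 of them and found 0 at an unadjusted p under 0.05. Sdha, the flavoprotein subunit that oxidizes succinate, had 329, 433 and 396 in BALB/cByJ and 394, 302, 319.6 and 273 in BALB/cJ (log2 fold change 0.26, SE 0.14, adjusted p = 0.327 from limma). Sdhb, the iron-sulfur subunit, had 803, 703 and 866 in BALB/cByJ and 598, 745, 674 and 670.3 in BALB/cJ (log2 fold change 0.23, SE 0.13, adjusted p = 0.347 from limma). Sdha ran against the common pattern of libraries, with its highest values in BALB/cByJ 2 and BALB/cJ 1 within each strain, while Sdhb was lowest there. The ratio of Sdha to Sdhb therefore spread as widely within the strains as between them, at 0.410, 0.617 and 0.457 in BALB/cByJ and 0.658, 0.405, 0.474 and 0.408 in BALB/cJ. The membrane anchors had the smallest differences of the complex. Sdhc was at 440.5 ± 25.8 in BALB/cByJ and 440.9 ± 34.8 in BALB/cJ (log2 fold change 0.00052, 95% interval -0.25 to 0.25), and Sdhd at 481 ± 19.8 in BALB/cByJ and 451 ± 36.8 in BALB/cJ (0.09, 95% interval -0.15 to 0.34).

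Complex III, the cytochrome bc1 complex, moves electrons from ubiquinol to cytochrome c. Its 8 genes tested all had a positive log2 fold change (median 0.18), and Uqcrc2 was the one called. Uqcrc2, on chromosome 7 (chr7:120635189-120659523, GRCm38.p6), encodes 1 of the pair of core proteins that face the matrix and resemble mitochondrial processing peptidases. Its expression value was 789.8, 766 and 819 in the 3 BALB/cByJ libraries, against 566, 577, 545 and 515 in the 4 BALB/cJ libraries. The strains were far apart relative to their spread, at 792 ± 26.3 in BALB/cByJ (SD, n = 3) and 551 ± 27.6 in BALB/cJ (SD, n = 4), a ratio of 1.44. The log2 fold change was 0.52 (SE 0.12, 95% interval 0.28 to 0.77, adjusted p = 0.0356 from limma). BALB/cJ 1, the lowest library for most members, lay inside the range of the other BALB/cJ libraries for Uqcrc2. Without BALB/cByJ 2 and BALB/cJ 1 it was called as well (adjusted p = 0.0261 from limma, beside 0.472% of all genes called higher), and so it was with TMM scaling, beside 1.07% of all genes.

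The call of Uqcrc2 was near the threshold. It was lost without any 1 of BALB/cByJ 1 (adjusted p = 0.147 from limma), BALB/cByJ 2 (0.0578), BALB/cByJ 3 (0.13), BALB/cJ 3 (0.118) or BALB/cJ 4 (0.112), with the Y-linked covariate (0.113), with quantile normalization (0.0664, beside 0.849% of all genes called higher) and with the replicate number as a block (0.36, beside 0.299%), where BALB/cJ 4 has no partner and adds nothing to the difference. Over all settings the adjusted p ran from 0.0039 to 0.36. Its log2 fold change stayed between 0.41 and 0.58 in those settings that lost the call.

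Uqcrc1, the partner core protein, showed no such gap, with 668, 752 and 601 in BALB/cByJ and 671, 731, 604 and 565 in BALB/cJ (log2 fold change 0.07, 95% interval -0.22 to 0.35, adjusted p = 0.817 from limma). The ratio of Uqcrc2 to Uqcrc1 within a library, chosen after the values were seen, was 1.18, 1.02 and 1.36 in BALB/cByJ and 0.843, 0.79, 0.902 and 0.91 in BALB/cJ. Uqcrc2 thus exceeded Uqcrc1 in each BALB/cByJ library and in 0 of the BALB/cJ libraries. Uqcrfs1, the Rieske iron-sulfur protein, had 607, 564 and 643 in BALB/cByJ and 485, 539, 522 and 527 in BALB/cJ, without overlap but with a smaller difference (log2 fold change 0.22, SE 0.11, adjusted p = 0.318 from limma). The most abundant genes of the complex by the mean over the 7 libraries encode small accessory subunits. Uqcrb was at 2092 ± 237 in BALB/cByJ and 1849 ± 285 in BALB/cJ, Uqcr11 at 1652 ± 311 in BALB/cByJ and 1558 ± 175 in BALB/cJ, and Uqcrh at 1359.5 ± 315 in BALB/cByJ and 1274 ± 167 in BALB/cJ. Their log2 fold changes of 0.18, 0.07 and 0.07 were about as large as their standard errors or smaller, and Uqcrq, the lowest of the complex, differed by 0.21 (SE 0.14).

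**Figure D3:**
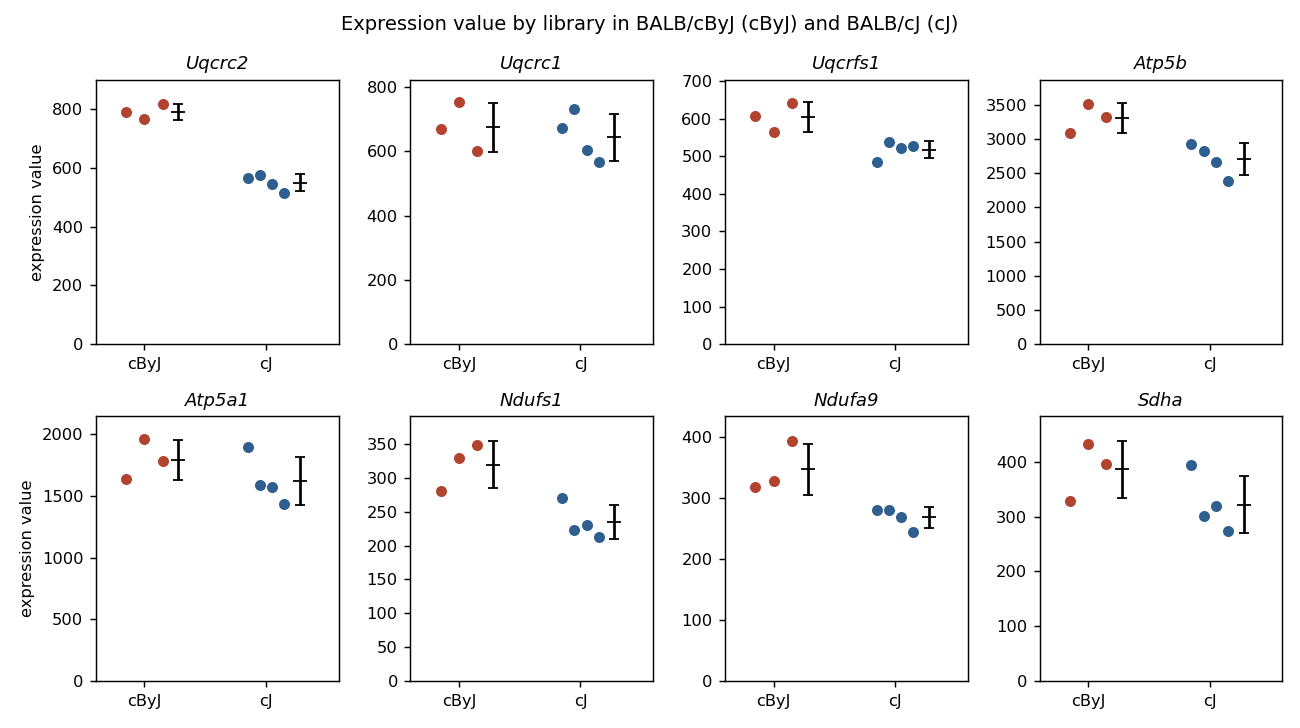
Expression value (y axis, from 0) of 7 core subunit genes and the accessory subunit gene Ndufa9 in each library of BALB/cByJ (cByJ, red) and BALB/cJ (cJ, blue), with mean and SD at the right of each group. The strains do not overlap for Uqcrc2, Uqcrfs1, Atp5b, Ndufs1 and Ndufa9, and they overlap for Uqcrc1, Atp5a1 and Sdha.

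Complex IV, cytochrome c oxidase, passes electrons to oxygen on subunits encoded in mitochondrial DNA, and the nuclear genes make the subunits around them. Of the 17 genes, 13 had a positive log2 fold change (median 0.13), limma called 0, and 1 reached an unadjusted p under 0.05, Cox7a1. Cox7c, Cox6c and Cox4i1 were the most abundant by the mean over the 7 libraries, at 2858 ± 454, 2645 ± 377 and 2243 ± 152 in BALB/cByJ and 2463 ± 425, 2589 ± 564 and 2257 ± 190.5 in BALB/cJ. Their log2 fold changes of 0.22, 0.05 and -0.01 lay within about 1 standard error of 0 or little more. Cox5a, which joins early in assembly together with Cox4i1, had 1162, 1173 and 1150.3 in BALB/cByJ and 1125, 1266, 1113 and 1070.1 in BALB/cJ (log2 fold change 0.03, 95% interval -0.25 to 0.30). The smallest p-values after Cox7a1 were those of Cox6b1, Cox8b and Cox7b (log2 fold changes 0.29, 0.27 and 0.23, adjusted p = 0.385, 0.411 and 0.459 from limma).

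Several subunits of complex IV exist as isoforms. Cox6a2, Cox7a1 and Cox8b are the forms of heart and skeletal muscle, Cox6a1, Cox7a2 and Cox8a are made in most tissues, Cox4i2 is a form known from lung and from low oxygen, and Ndufa4l2 is a relative of Ndufa4 known from low oxygen and from mural cells. Muscle forms already exceeded their partners in the P4 ventricle of both strains. Cox7a1 had 1586, 1187 and 1445 in BALB/cByJ and 789, 1295, 983 and 1030.3 in BALB/cJ, so that BALB/cByJ 2 lay below BALB/cJ 2 (means 1406 ± 202 in BALB/cByJ and 1024.5 ± 209 in BALB/cJ). The log2 fold change of 0.47 (SE 0.17) did not pass (adjusted p = 0.169 from limma, 0.0532 to 0.659 over the settings). Cox7a2 had 725, 539.7 and 704 in BALB/cByJ and 465, 691, 583 and 676 in BALB/cJ (log2 fold change 0.13, adjusted p = 0.699 from limma).

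A ratio of 2 isoforms within a library does not depend on how that library was scaled. Cox7a1 over Cox7a2 was 2.19, 2.20 and 2.05 in BALB/cByJ and 1.70, 1.87, 1.69 and 1.52 in BALB/cJ. Every BALB/cByJ library lay above every BALB/cJ library, with Cox7a1 making up 68.2% ± 0.843 of the pair in BALB/cByJ (SD, n = 3) and 62.8% ± 1.98 in BALB/cJ (SD, n = 4). The log2 difference of the ratio was 0.34, and it was 0.29 to 0.39 with any 1 library left out. Cox6a2 over Cox6a1 was 2.44, 2.69 and 3.03 in BALB/cByJ and 2.42, 2.53, 2.25 and 1.98 in BALB/cJ, so the strains overlapped (log2 difference 0.25). Cox8b over Cox8a was 1.82, 1.44 and 1.75 in BALB/cByJ and 1.18, 1.44, 1.41 and 1.43 in BALB/cJ, where BALB/cByJ 2 met the BALB/cJ range (log2 difference 0.29). All 3 muscle forms thus had a higher mean share of their pair in BALB/cByJ, at 73.0% for Cox6a2 and 62.4% for Cox8b against 69.5% and 57.6% in BALB/cJ, and the groups were apart for Cox7a1 alone. No test was made of these ratios.

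**Figure D4:**
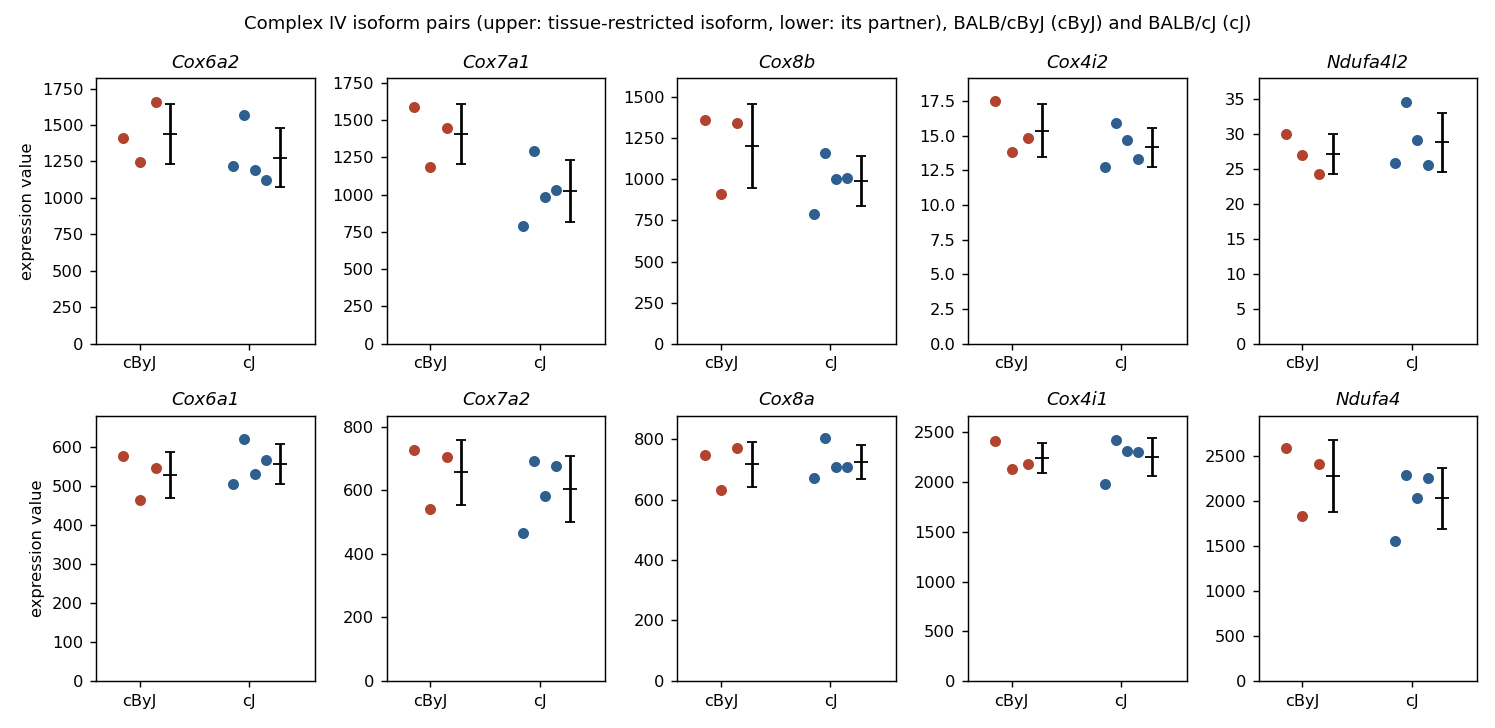
Expression value (y axis, from 0) of complex IV isoform pairs in each library of BALB/cByJ (cByJ, red) and BALB/cJ (cJ, blue), with mean and SD at the right of each group. The muscle forms Cox6a2, Cox7a1 and Cox8b are above their partners in every library, whereas Cox4i2 and Ndufa4l2 are far below Cox4i1 and Ndufa4.

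The single genes of the other pairs differed little. Cox6a2 was at 1438 ± 205 in BALB/cByJ and 1275.5 ± 202 in BALB/cJ (log2 fold change 0.18, adjusted p = 0.571 from limma), and Cox6a1 at 529 ± 58.6 in BALB/cByJ and 556 ± 51.1 in BALB/cJ (-0.07, adjusted p = 0.791). Cox8b was at 1206 ± 257 in BALB/cByJ and 991 ± 151 in BALB/cJ, and Cox8a at 717 ± 75.4 in BALB/cByJ and 723 ± 56.2 in BALB/cJ (log2 fold change -0.02, 95% interval -0.29 to 0.26). Cox4i2 was at a ratio of 0.00684 to Cox4i1 in BALB/cByJ and 0.00628 in BALB/cJ, with 17.5, 13.8 and 14.8 in BALB/cByJ and 12.7, 15.9, 14.7 and 13.3 in BALB/cJ. Ndufa4l2 had 30.03, 27 and 24.3 in BALB/cByJ and 25.9, 34.7, 29.2 and 25.6 in BALB/cJ, while Ndufa4 was at 2281 ± 396 in BALB/cByJ and 2034 ± 339 in BALB/cJ. Of 8 mural markers 4 were lower in BALB/cByJ at an unadjusted p under 0.05, against 13.3% of all genes tested. Limma called 1 of these lower, Acta2 (log2 fold change -0.96, adjusted p = 0.0091), against 0.881% of all genes. The summed value of the 8 was 566 to 644 in BALB/cByJ and 816 to 1201 in BALB/cJ. Much of this sum was Acta2, at 332, 339 and 306 in BALB/cByJ and 885, 495, 584 and 637 in BALB/cJ. Among the other mural markers only Kcnj8 did not overlap between the strains. Ndufa4l2 overlapped between the strains. Cox7a2l, a relative of Cox7a2 that takes part in joining complexes III and IV, was at 389.9 ± 58.1 in BALB/cByJ and 365 ± 57.5 in BALB/cJ (log2 fold change 0.10). Cox6b1 had 2614, 2022.5 and 2777 in BALB/cByJ and 1704, 2492, 1874 and 2022.4 in BALB/cJ, and the testis form left out by the rule, Cox6b2, had 27.6, 24.95 and 22.8 in BALB/cByJ and 9.37, 8.29, 9.08 and 8.89 in BALB/cJ. In both strains Cox6b2 was a minor transcript beside Cox6b1.

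**Figure D5:**
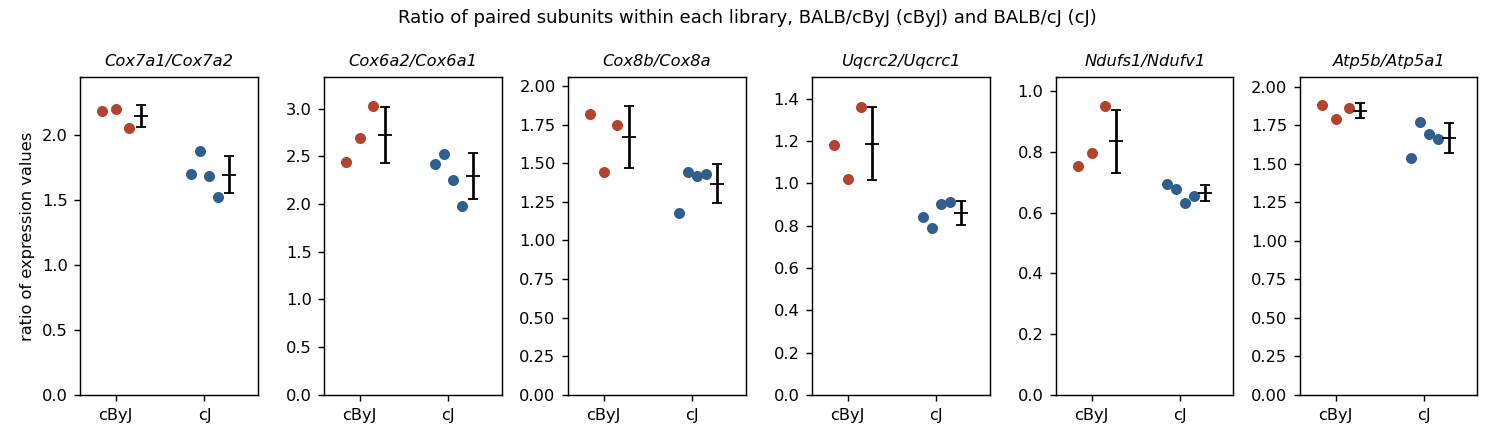
Ratio of paired subunit genes within each library (y axis, from 0) in BALB/cByJ (cByJ, red) and BALB/cJ (cJ, blue), with mean and SD at the right of each group. The first 3 ratios set a muscle isoform over its partner and the last 3, chosen after the values were seen, set core subunits of complexes III, I and V over each other. The strains do not overlap for Cox7a1/Cox7a2, Uqcrc2/Uqcrc1, Ndufs1/Ndufv1 and Atp5b/Atp5a1.

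The sequences ahead of isoform genes are shown because the paired genes code for the same subunit and differed in level. Only the ratio of Cox7a1 to Cox7a2 did not overlap between the strains. Cox6a2, the partner of Cox6a1, had no promoter entry, so its sequence is not shown and the pair cannot be compared. Each is the 170 bases before an annotated transcription start in RefSeq (GRCm38.p6), written along the strand of the gene, and capitals mark matches to the motifs searched. For Cox7a2 that start lies inside the gene's RefSeq span (chr9:79755241-79771422) and not at its upstream end. Cox7a1 lies on the plus strand (chr7:30184001-30184170), and Cox7a2 (chr9:79759854-79760023), Cox8b (chr7:140900447-140900616), Cox8a (chr19:7217617-7217786) and Cox6a1 (chr5:115348959-115349128) on the minus strand.
Cox7a1: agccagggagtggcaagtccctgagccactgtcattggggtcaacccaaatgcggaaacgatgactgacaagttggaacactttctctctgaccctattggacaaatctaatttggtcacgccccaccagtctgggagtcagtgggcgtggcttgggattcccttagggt
Cox7a2: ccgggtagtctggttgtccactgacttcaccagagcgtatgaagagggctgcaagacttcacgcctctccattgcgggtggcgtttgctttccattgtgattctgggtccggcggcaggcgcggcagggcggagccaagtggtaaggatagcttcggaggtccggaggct
Cox8b: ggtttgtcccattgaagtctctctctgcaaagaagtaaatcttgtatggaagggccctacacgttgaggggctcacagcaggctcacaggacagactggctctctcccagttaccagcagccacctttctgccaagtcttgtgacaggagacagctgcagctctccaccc
Cox8a: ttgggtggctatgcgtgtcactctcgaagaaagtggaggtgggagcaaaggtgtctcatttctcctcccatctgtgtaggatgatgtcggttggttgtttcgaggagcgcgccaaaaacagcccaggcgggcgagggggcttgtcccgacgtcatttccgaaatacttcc
Cox6a1: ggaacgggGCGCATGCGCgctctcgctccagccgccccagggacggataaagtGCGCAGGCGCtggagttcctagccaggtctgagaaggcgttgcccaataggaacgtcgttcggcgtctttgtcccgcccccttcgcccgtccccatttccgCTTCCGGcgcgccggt
The widely expressed Cox6a1 holds 2 matches to the motif of NRF1 (GCGCA, any base, GCGC), a transcription factor known for its sites in respiratory genes, at 162 and 117 bases before the start, and 1 match to CCGGAAG, the ETS motif that GABP binds, at 16 bases before the start on the other strand. No whole match to the motifs searched lies in the stretches shown of the other 4 genes, but Cox8a holds 2 ETS matches beyond its stretch, 1 that begins 5 bases before the start and runs across it and 1 at 33 bases after it.

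The same motifs were sought in the window from 250 bases before to 50 bases after the start of the 67 members with a promoter entry in RefSeq (GRCm38.p6), on both strands, and in the windows of all 27025 genes with an entry. The NRF1 motif was in 17 members (25.4%) and in 5.19% of all genes, and the ETS motif in 16 members (23.9%) and in 9.93% of all genes. The motif AANATGGC of YY1, which can overlap the start itself, was in 17 members (25.4%) and in 6.96% of all genes, and 12 of these 17 were among the 32 complex I genes with an entry, against 1 of 12 in complex IV. The motif TNAAGGTCA of estrogen-related receptors was in 3 members (Atp5g3, Ndufb4 and Sdhd), 4.48% against 1.43% of all genes, and the MEF2 motif (CTA, any 4 bases, TAG) was in 1 member, 1.49% against 4.23%. Sdha and Ndufb4 held 3 NRF1 matches each. Member windows had a median GC content of 57.5% and all windows 52.7%. The 27025 genes are more than the 17404 of the expression table, so some of them are not in it. The parts of GC content and of expression level in these shares were not tested. A match is a run of letters and does not show that a factor binds there.

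Complex V, the ATP synthase, has a catalytic F1 head in the matrix, a rotating c ring in the membrane and a peripheral stalk that holds the head still. All 17 genes had a positive log2 fold change (median 0.16), limma called 0 of them, and 0 reached an unadjusted p under 0.05. Atp5b, the catalytic beta subunit, had the highest mean level of all members. It had 3080.2, 3511 and 3321 in BALB/cByJ and 2927, 2823, 2662 and 2387.5 in BALB/cJ, without overlap (log2 fold change 0.29, SE 0.16, adjusted p = 0.327 from limma). Atp5a1, the alpha subunit that alternates with beta in the head, had 1635, 1959.7 and 1785 in BALB/cByJ and 1899.5, 1590.5, 1569.6 and 1439 in BALB/cJ, with an overlap (log2 fold change 0.15, SE 0.15). Like Sdha, both genes were not low in BALB/cByJ 2 and BALB/cJ 1, where they had the highest value of their strain. The ratio of Atp5b to Atp5a1, chosen after the values were seen, was 1.88, 1.79 and 1.86 in BALB/cByJ and 1.54, 1.78, 1.70 and 1.66 in BALB/cJ, so that the lowest BALB/cByJ library lay just above the highest BALB/cJ library.

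The remaining parts of complex V differed by similar small amounts. The stalk genes had a median log2 fold change of 0.23, with Atp5h at 2044 ± 249 in BALB/cByJ and 1649.7 ± 196 in BALB/cJ (0.31, SE 0.15, adjusted p = 0.304 from limma) and Atp5f1 at 835 ± 76.0 in BALB/cByJ and 709 ± 75.8 in BALB/cJ (0.24, adjusted p = 0.351). Atp5c1, the gamma subunit whose shaft turns inside the head, was at 1514 ± 145 in BALB/cByJ and 1277 ± 109.6 in BALB/cJ (0.25, adjusted p = 0.361 from limma). The c ring is built from 1 protein made by 3 genes that differ in their import sequence. Of their summed value Atp5g3 gave 47.0%, 48.9% and 44.5% in BALB/cByJ and 48.3%, 46.0%, 49.5% and 48.9% in BALB/cJ, Atp5g1 gave 36.7%, 35.4% and 39.3% in BALB/cByJ and 34.7%, 38.3%, 34.1% and 35.4% in BALB/cJ, and Atp5g2 the remainder. These shares overlapped throughout, with single log2 fold changes of 0.13 for Atp5g3, 0.23 for Atp5g1 and 0.16 for Atp5g2. The small membrane subunits had a median of 0.15, with Atp5k lowest of the complex at 0.02 (SE 0.16). Atp5s, an associated factor and not a stoichiometric subunit, had the lowest level, at 12.7 ± 1.02 in BALB/cByJ and 11.6 ± 2.19 in BALB/cJ.

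Other nuclear genes of the chain were looked at beside the members. The 18 tested were genes for cytochrome c, complex I and III subunits with other symbols, electron transfer flavoprotein and ubiquinone synthesis. In BALB/cByJ 1 was called higher, against 0.771% of all genes tested, and 0 lower, against 0.881%. A positive log2 fold change was found in 15 (median 0.19), against 34.8% of all genes (median -0.073). The called gene, Coq3, a methyltransferase of ubiquinone synthesis, had 26.2, 24.8 and 25.3 in BALB/cByJ and 17.2, 19.7, 20.06 and 18.04 in BALB/cJ (log2 fold change 0.42, SE 0.10, adjusted p = 0.0458 from limma). Etfdh, which passes electrons of fatty acid oxidation to ubiquinone, had 303, 353 and 322 in BALB/cByJ and 282, 223, 236 and 209 in BALB/cJ, without overlap (log2 fold change 0.46, adjusted p = 0.0756 from limma). Cyc1, the cytochrome c1 of complex III, was at 736 ± 6.18 in BALB/cByJ and 689.7 ± 73.7 in BALB/cJ (log2 fold change 0.10, chosen after its value was seen).

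Assembly factors were not called in either direction, against 1.65% of all genes tested. At an unadjusted p under 0.05, 5.06% of all genes were higher and 13.3% lower. Limma called 0 of 18 tested factors of complex I, 0 of 4 of complex II, 0 of 6 of complex III, 0 of 22 of complex IV and 0 of 5 of complex V. Unadjusted p-values under 0.05 were found for 3 higher factors of complex I, among them Foxred1 and Ndufaf1 (log2 fold change 0.30 for each), for 1 lower factor of complex IV, Sco2 (-0.30), and for 1 higher factor of complex V, Atpaf1, which helps to build the F1 head (0.32, adjusted p = 0.0978 from limma). Median log2 fold changes of these lists were 0.05, 0.07, 0.07, 0.04 and 0.14 for complexes I to V. Of 15 nuclear regulators of respiration limma called 0, while at an unadjusted p under 0.05 there were 0 higher and 1 lower. A positive log2 fold change was found in 5 (median -0.06), against 34.8% of all genes (median -0.073), so the regulators lay near all genes. The regulator lower at that p was Pprc1, a coactivator related to PGC-1. It had 3.52, 6 and 3.69 in BALB/cByJ and 7.7, 5.13, 7.02 and 6.77 in BALB/cJ (log2 fold change -0.52, adjusted p = 0.113 from limma).

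Markers of other cells and tissues that a dissection could hold were set beside the members. Over all genes tested, limma called 0.771% higher and 0.881% lower, and 5.06% were higher and 13.3% lower at an unadjusted p under 0.05. Of 5 tested erythroid markers 0 were called by limma and 3 were lower in BALB/cByJ at an unadjusted p under 0.05, with a summed value of 4347 to 5375 in BALB/cByJ and 6359.5 to 14579 in BALB/cJ. Of the fat markers, Ucp1, the defining gene of brown fat, was listed at 0 to 0.05 in BALB/cByJ and 0 to 0.16 in BALB/cJ. Adipoq, Plin1, Elovl3 and Cfd were at or under 0.14 in every library. Limma called 0 of the 2 tested genes of that list, and 1, Cidea, was higher at an unadjusted p under 0.05. The list summed to 1284.5 to 1934 in BALB/cByJ and 1099.8 to 1667 in BALB/cJ. Nearly all of this was Fabp4, at 1577 ± 324 in BALB/cByJ and 1453 ± 266 in BALB/cJ. Atrial markers summed to 232 to 384 in BALB/cByJ and 130.1 to 294 in BALB/cJ, with 0 of 5 called by limma. The 2 higher at an unadjusted p under 0.05, Nppa and Myl4, made up most of these sums. Each of the 5 overlapped between the strains, with Myl7 at 32.6, 6.85 and 24.3 in BALB/cByJ and 16.6, 6.37, 41.55 and 6.37 in BALB/cJ. Fast muscle myosins Myh1, Myh2 and Myh4 were at or under 0.09 in BALB/cByJ and at or under 0.74 in BALB/cJ, so that the summed list of 2293 to 2530 in BALB/cByJ and 1624 to 1914 in BALB/cJ was nearly all Ckm, which cardiomyocytes also express. Limma called 0 of the 5 tested genes of that list, and 2, Ckm and Tnni2, were higher at an unadjusted p under 0.05. Endothelial, fibroblast and macrophage lists overlapped between the strains in their sums. Limma called 0 of their genes, and unadjusted p-values under 0.05 were found for 1 higher and 1 lower fibroblast gene, 1 higher and 3 lower macrophage genes and 0 endothelial genes. Most of the macrophage sum was Lyz2 and C1qa. The 3 lower macrophage genes, Ptprc, Adgre1 and Csf1r, did not overlap between the strains, against 12.6% of all genes. Csf1r had 5.53, 5.67 and 3.39 in BALB/cByJ and 7.41, 7.74, 7.73 and 6.96 in BALB/cJ. The higher one, Cd14, overlapped. The part of cell makeup in the differences of the respiratory genes was not tested.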

How the data were processed

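The authors sent RNA of P4 ventricle pools (3 BALB/cByJ, 4 BALB/cJ) to BGI Genomics for libraries and sequencing. They deposited 1 table with a normalized signal per gene and library (17404 genes), given to 2 decimals. Its normalization is not stated, and it was taken from the form of the values to be for depth and length. The sources read here name neither an aligner nor whether the values are FPKM or TPM. The submitters' processing notes name the build mm10.

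Genes with a mean of at least 0.5 over the 7 libraries were fitted as log2(value + 1) with limma 3.58.1 (R 4.3.3), strain as the only term and the prior variance following the level. P-values were adjusted by Benjamini-Hochberg over all 12715 genes, and a gene was called under 0.05. The fit was tested on simulated data. Log2 fold changes are BALB/cByJ minus BALB/cJ, and the added 1 understates changes of low genes. TMM factors were computed on the normalized values with the usual trims, and summaries and plots were made with Python 3.11.15, pandas 2.3.3 and matplotlib 3.10.9.

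Coordinates and promoters are RefSeq's on GRCm38.p6 (17289 of 17404 genes matched by ID, 84 of 84 members), the build the authors used. Transcript lengths are those of canonical GENCODE M39 transcripts, matched by symbol for 81 of 84 members. Near-identical copies may share reads.

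Members and gene lists were chosen with earlier results of these data known. Genes were named by rule: each called member, and in each complex the 3 with the highest level, the lowest, and the 4 with the smallest p. Core subunits (1 is not reported here), tissue isoforms and the 3 largest differences in each direction were also named, as were the called and up to 2 other genes of each pathway list. Gene pairs marked so in the text were chosen after their values were seen. Alternatives were another pseudocount or filter, quantile, TMM or equal-sum scaling, the replicate number as a block, a Y-linked covariate, no variance trend, a stricter threshold, and each library left out. Leaving out BALB/cByJ 2 with BALB/cJ 1, a short-transcript covariate, and a small pseudocount without a filter were added after seeing the data, as were the block, the Y-linked covariate and the missing trend for the median over members. F1, backcrossed and knockout mice were not analysed here.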

Additional observations from a re-analysis of the deposited data

Results flagged for a closer look

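In the 4 BALB/cJ libraries, 66 values of named members, complexes and isoform ratios were checked for a library far from the others, and 2 stood out; chance alone does so in about 1 of 20 such groups. Ndufb10 had an expression value of 712.77 in BALB/cJ 2, with a gap to the next library of 0.877 of the range. The ratio of Cox8b to Cox8a was 1.1772 in BALB/cJ 1, with a gap of 0.895 of the range, and BALB/cJ 1 was also the library in which most respiratory genes were lowest.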

How the results depend on the processing

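The called members numbered 1 with a pseudocount of 0.1, a mean of at least 2, TMM or equal-sum scaling, no variance trend, and without BALB/cByJ 2 and BALB/cJ 1 together. They numbered 0 with no filter (Uqcrc2 adjusted p = 0.0889 from limma), quantile normalization (0.0664), the Y-linked covariate, an adjusted p under 0.01, or a pseudocount of 0.1 with no filter (0.0928), 2 with the short-transcript covariate, and 0 to 2 with 1 library left out. 0 members were called lower in any setting. The median log2 fold change of the members was 0.07 with quantile normalization, 0.25 with TMM scaling, 0.12 with equal sums, 0.10 to 0.27 with 1 library left out, and -0.00084 with the Y-linked covariate, while that of all genes was -0.013, -0.0053, -0.12, -0.088 to -0.056 and -0.12. Over all genes, calls higher and lower numbered 98 and 112 as deposited, 136 and 59 with TMM scaling, 108 and 49 with quantile normalization, 64 and 93 with equal sums, 23 and 16 with no filter and 25 and 21 with the Y-linked covariate. Same-numbered pools did not deviate together (correlations of -0.19, -0.26 and -0.05), and the highest correlation was that of BALB/cByJ 2 with BALB/cJ 1 (0.39). These values cannot show whether same-numbered pools were handled together. With the replicate block, in which BALB/cJ 4 has no partner, 0 members and 38 higher and 20 lower genes were called. Cox4i1 (0.0041), Cox5a (-0.0054) and Sdhc (-0.0012) changed sign there.

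None of the members whose sign changed was called. Under the Y-linked covariate 16 named members turned negative: Atp5s (-0.16), Cox4i2 (-0.0022), Cox6c (-0.35), Cox7a2 (-0.19), Cox7a2l (-0.21), Cox7b (-0.067), Cox7c (-0.12), Ndufa12 (-0.042), Ndufa4 (-0.17), Ndufb8 (-0.022), Ndufb9 (-0.12), Sdhc (-0.11), Sdhd (-0.0038), Uqcr11 (-0.09), Uqcrb (-0.055) and Uqcrh (-0.18). Quantile normalization did so for Atp5g3 (-0.046), Cox5a (-0.080), Cox6c (-0.078), Sdhc (-0.078), Sdhd (-0.0010), Uqcr11 (-0.021), Uqcrc1 (-0.038) and Uqcrh (-0.068), and equal sums for Cox5a (-0.026), Cox6c (-0.0038) and Sdhc (-0.051). TMM scaling turned Cox4i1 (0.072), Cox6a1 (0.0053) and Cox8a (0.062) positive. The short-transcript covariate gave -0.068 for Cox6c, -0.043 for Sdhc, -0.019 for Uqcr11 and -0.038 for Uqcrh, and without BALB/cByJ 2 and BALB/cJ 1 Cox8a was at 0.040 and Sdhc at -0.0046. With 1 library left out the log2 fold change crossed 0 for Cox4i1 (-0.067 to 0.030), Cox5a (-0.0054 to 0.076), Cox6a1 (-0.14 to 0.019), Cox6c (-0.10 to 0.17), Cox7a2l (-0.018 to 0.21), Cox8a (-0.072 to 0.073), Ndufa4l2 (-0.15 to 0.0095), Sdhc (-0.049 to 0.045), Uqcr11 (-0.011 to 0.24), Uqcrc1 (-0.014 to 0.15) and Uqcrh (-0.050 to 0.28). The cause was not tested. With 3 and 4 pools and unknown read numbers, the standard errors of single members (0.11 to 0.19 on the log2 scale) were about as large as the median difference, which limits what can be seen for one gene.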
